A study of Arabidopsis thaliana with 12 samples.

Results

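The leaf transcriptome of *trm5-1* was compared with that of wild type over every gene of the deposited count table, using 6 of the 12 samples of the series. Wild type was the Columbia accession (Col-0) without a mutation, and *trm5-1* was homozygous for a T-DNA insertion in *TRM5* (AT3G56120) in the same accession. All 6 samples were leaves that the labels give as 20 days old, with no treatment named, and each genotype has 3 libraries that the labels number as replicates 2, 3 and 4. The columns are named wt1, wt2 and wt3 for wild type and trm5_1, trm5_2 and trm5_3 for the mutant, in that order, and values of 3 libraries are always given in this order. Where a pair of such sets is given, wild type comes first. The insertion is present in every cell of the plant and *trm5-1* is 1 allele, so a second allele was not compared here. The methods call the libraries biological replicates, but no source used here says how many plants or which harvest each holds, so p-values measure the spread between these samples, which may be technical. The sources do not agree on the tissue. The labels and the methods give leaves, whereas the extraction protocol in the labels speaks of seedlings and of tRNA, and a legend in the paper names younger seedlings for the RNA-seq. The hour of harvest is not given in the sources used here.

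TRM5 is the enzyme that methylates guanosine, and in some tRNAs inosine, at the base that follows the anticodon. This methyl group is known to keep the ribosome in its reading frame in yeast and bacteria. A growing *Arabidopsis* leaf divides its cells first, then expands them and builds the photosynthetic apparatus, and hormones such as salicylic acid are known to turn such tissue from growth to defence.

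The mutated gene followed the labels. *TRM5* (AT3G56120, chromosome 3, 20823146 to 20826543) had 13.3, 22.8 and 19.7 CPM, the count scaled to the size of its library, in wild type and 4.92, 2.75 and 4.08 in *trm5-1*. Every mutant library lay below every wild type library, and the log2 fold change was -2.25 with a standard error (SE) of 0.31 (adjusted p = 0.0226). A log2 fold change here is the mutant relative to wild type from edgeR's quasi-likelihood test, and the adjusted p is the Benjamini-Hochberg value over the 19408 genes that passed the filter on low counts. The library totals ran from 14954658 counts in wt1 to 26927531 in trm5_3. Of the 33610 rows of the table, 26561 had a count. None of the 279 organelle-encoded genes had a count in any library (0 in all), so photosynthesis is described below only for nuclear genes. All 5 leaf mesophyll markers were tested, with a summed level of 18088 to 25370 CPM in wild type and 6368 to 12545 in *trm5-1*. Only 1 of 9 root markers, 1 of 5 shoot meristem markers and 1 of 6 seed markers passed the filter. All 3 tested of 6 flower markers fell and held, at summed levels of 3.63, 8.5 and 6.21 CPM in wild type and 1.33, 1.03 and 1.45 in *trm5-1*. At such low levels a gene can pass the filter through wild type alone, and its direction may then be set by the filter. Leaf RNA is a mixture of cell types, and fewer cells of a type and less RNA per cell cannot be told apart in these data.

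The replicates were not equally spaced. Wild type replicates 2 and 3 differed more than 4-fold in 2396 tested genes (12.3%), and wt3 lay between wt1 and wt2 in 2364 of these (98.7%). In *trm5-1*, 520 genes (2.68%) were that far apart, with trm5_3 between the others in 502 (96.5%). The SD of the log2 difference between replicates 3 and 2 was 1.39 in wild type and 0.758 in *trm5-1*. In both genotypes replicate 4 was close to a weighted sum of the other libraries. Counts of wt3 were fitted by a sum of which wt1 gave 44.8% and wt2 55%, and the median squared residual over 18974 genes was 1.54 times the sampling variance. The same measure was 63.1 between wt1 and wt2, 23.1 between wt1 and wt3 and 17.1 between wt2 and wt3. For trm5_3 the sum took 60.1% from trm5_1 and 39.7% from trm5_2, and the median squared residual was 1.72 times the sampling variance, against 19.8 between trm5_1 and trm5_2. The sources used here do not say whether replicate 4 was a pool of the others, and this fit does not settle it. If it holds no separate plants, each genotype has 2 independent libraries and not 3, and the SEs and adjusted p-values given here, all from fits that take 3 libraries as independent, are too small.

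The number of genes called depended on replicate 4. edgeR called 1387 genes lower and 835 higher in *trm5-1* at an adjusted p under 0.05, which is 7.15% and 4.3% of the tested genes. Without wt3 and trm5_3 together it called 0 in each direction, while 1113 lower and 608 higher genes had an unadjusted p under 0.05, and DESeq2 called 336 lower and 227 higher. Without wt3 alone or trm5_3 alone, edgeR also called 0. A gene is said to have risen or fallen where edgeR called it with all 6 libraries, so each such statement rests on replicate 4 being counted as independent.

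For this reason each gene was also set against single wild type libraries. A gene is said to hold against wt1 or wt2 where all 3 *trm5-1* libraries lie on the same side of that library and their mean difference from it is at least 2-fold in CPM. Against wt1 alone, 1770 genes were lower (9.12%) and 1338 higher (6.89%). Against wt2 alone, 3702 were lower (19.1%) and 3536 higher (18.2%). Against both, 1132 genes held as lower (5.83%) and 697 as higher (3.59%). These shares over all tested genes are the background for every count of a gene list below, and no list was tested as a whole.

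**Figure D1:**
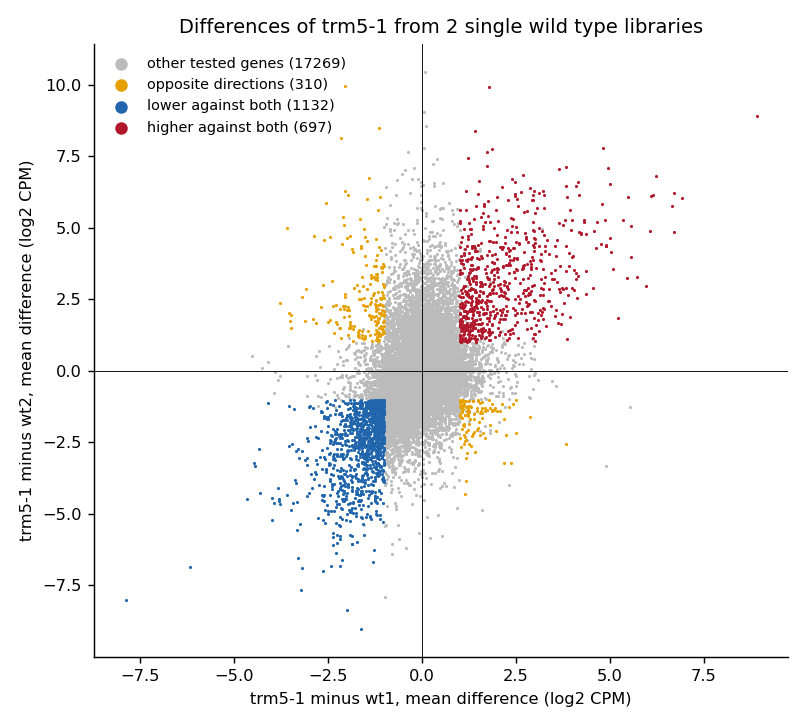
Mean difference of the 3 *trm5-1* libraries from wt1 (horizontal axis) and from wt2 (vertical axis), both in log2 CPM, with 1 point per tested gene. Blue points are the 1132 genes lower against both wild type libraries, red points the 697 higher against both, and orange points the 310 genes that are at least 2-fold lower against one wild type library and at least 2-fold higher against the other.

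The test and the single-library comparison overlapped in part. Of the 1387 genes called lower, 809 held against both wild type libraries (58.3%), which is 71.5% of the 1132 that held. Of the 835 called higher, 499 held (59.8%), which is 71.6% of the 697. Among the genes that held, 631 lower and 358 higher ones had wt1 and wt2 within 2-fold of each other, so for these the wild type libraries themselves gave similar levels. The difference had opposite directions in 310 genes, of which 198 were lower than wt1 and higher than wt2. The plot of the differences shows both the diagonal clouds of genes that held and the long vertical spread of genes whose level differed between wt1 and wt2.

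The 15 genes with the smallest p among those that fell and held are named here or with their lists below, and no theme was tested for them. AT1G33811, a GDSL lipase, had 20.9, 22 and 22.3 CPM in wild type and 3.89, 3.17 and 4.37 in *trm5-1*. All libraries of a genotype were close to each other, and the log2 fold change was -2.51 (SE 0.17, adjusted p = 0.0107). *UDG4*, a UDP-glucose dehydrogenase that makes precursors of wall polysaccharides, went from 43.4, 49.4 and 48.8 to 12.5, 8.62 and 10.3 CPM. The genotypes did not overlap, and the difference was -2.06 against wt1 and -2.24 against wt2 on the log2 scale. AT5G17460, annotated as a subunit of the amidotransferase that forms glutaminyl-tRNA in organelles, had 25.9, 29.2 and 28.5 CPM in wild type and 8.32, 8.81 and 8.74 in the mutant, a log2 fold change of -1.69 (adjusted p = 0.0109). Its libraries were close to each other within each genotype. Other genes in this group were *PAP29*, a purple acid phosphatase (log2 fold change -2.19), *RXF12*, a xylanase (-2.78), *GH9B8*, an endoglucanase (-2.97), AT3G07320, a glycosyl hydrolase (-1.9), *PTAC17*, a protein of the plastid chromosome (-1.8), AT3G06880, a WD40 repeat protein (-2.23), AT1G29980, a DUF642 protein (-1.83), and AT2G34300, a protein of the methyltransferase superfamily (-1.53).

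A pseudogene and an uncharacterised gene were counted in 1 genotype only. AT2G05660.1, a pseudogene on chromosome 2, was counted 269, 619 and 575 times in the wild type libraries, with a count of 0 in all mutant libraries. Set against a floor of 3 counts over the 3 mutant libraries, it was at least 537-fold lower in *trm5-1*. AT3G01345, by contrast, was at 44.4, 34 and 44.9 CPM in the mutant and had a count of 0 in all wild type libraries. Against the same floor of 3 counts over the group, it was at least 911-fold higher. Of the tested genes, 3 had 0 counts in all *trm5-1* libraries and 4 had 0 in all wild type libraries.

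The genes with the smallest p among those that rose and held were chosen in the same way. *CYP71B23*, a cytochrome P450, had 12.7, 14.2 and 13.6 CPM in wild type and 63, 59.4 and 61.8 in *trm5-1*. *ABCC3*, a multidrug resistance-associated ABC transporter, had 55.2, 39.8 and 47 CPM in wild type against 456, 359.9 and 409 in the mutant. In both genes the wild type libraries were alike and every mutant library was higher, with differences of 2.27 and 2.88 against wt1 and 2.1 and 3.35 against wt2. *MAF5*, a MADS-box gene of the *FLC* clade, rose from 1.7, 1.95 and 1.27 to 17, 18.1 and 15.8 CPM, a log2 fold change of 3.37 (SE 0.22, adjusted p = 0.0106). It was the only one of 22 tested floral transition genes that edgeR called. The receptor-like proteins *RLP37*, *RLP34* and *RLP41* rose with log2 fold changes of 1.85, 1.63 and 3.86. Others were AT5G38250, a protein kinase (3.48), AT1G51890, a leucine-rich repeat kinase (4.37), AT5G38900, a thioredoxin-family protein (4.69), AT1G26380, a berberine-bridge enzyme-like oxidase (3.68), *AAC3*, an ADP/ATP carrier of mitochondria (2.26), AT2G37130, a class III peroxidase (2.63), and *EDA36* (5.24). AT3G60170.1, a pseudogene, had a count of 0 in wt1 and wt2 and 0, 0 and 0.0374 CPM over the wild type libraries, against 5.02, 6.45 and 5.82 in the mutant.

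Very few genes were called against wt1 alone, where 1 library stands for wild type and is assumed to vary like the mutant libraries. These were 7 lower and 5 higher genes, with 2305 lower and 2332 higher at an unadjusted p under 0.05. Among them, AT2G43550, a knottin-like defence protein (log2 fold change against wt1 -3.53, adjusted p = 0.0345), *LTI78* and AT5G23820 were lower in the full comparison as well. *PR1*, AT3G01345, AT2G37130, *WAK3*, a wall-associated kinase, and *SBT3.3*, a subtilase, were higher in both. AT1G14250, AT1G06640, *CYP94B1* and *CRK29* were called lower only against wt1. Where these genes lie outside the naming rule, they were named after their values were seen.

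**Figure D2:**
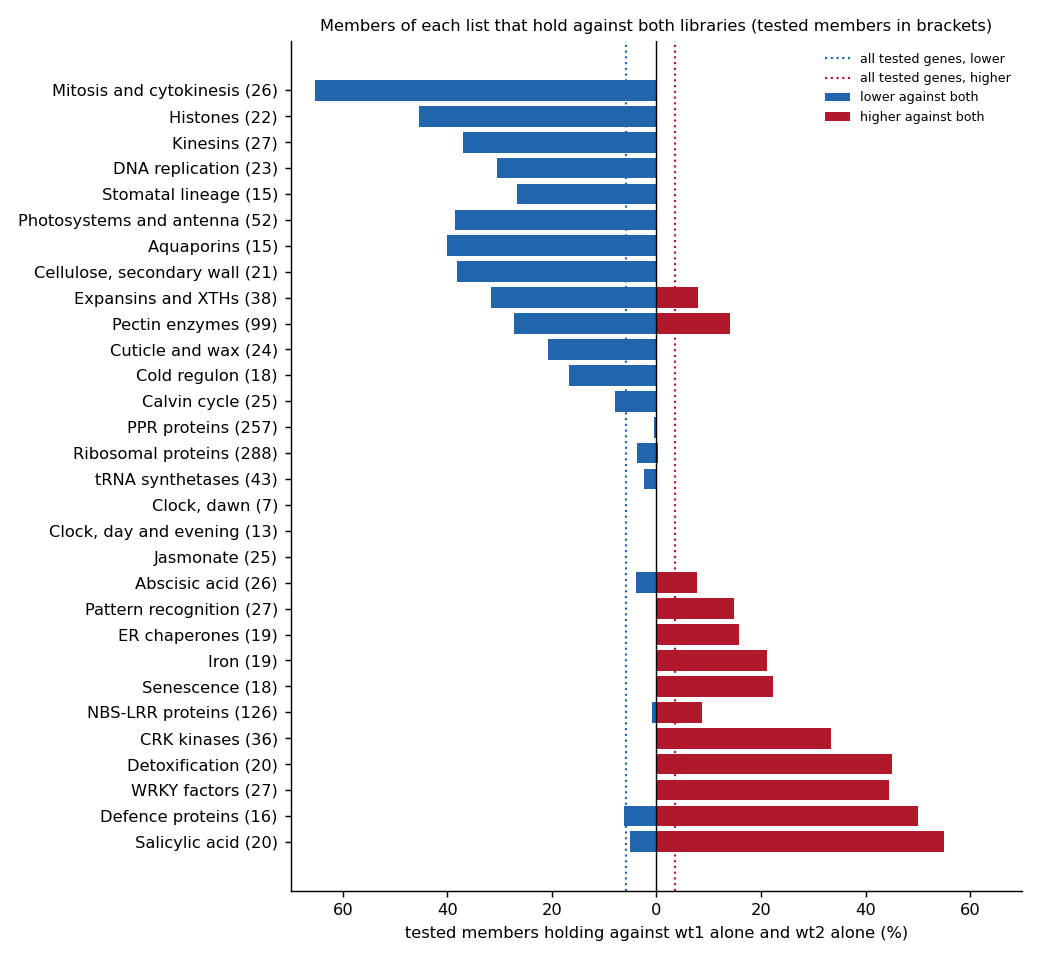
Percent of the tested members of the gene lists shown (vertical axis, tested members in brackets) that were lower (blue, to the left) or higher (red, to the right) against wt1 alone and wt2 alone. Dotted lines mark the same shares over all tested genes, 5.83% lower and 3.59% higher. Among these lists the longest bars to the left are mitosis, histones and aquaporins, and the longest to the right are salicylic acid, defence protein, detoxification and WRKY lists.

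Counts per list also depended on replicate 4, and here DESeq2 without wt3 and trm5_3 is given beside the edgeR calls, since edgeR then called 0 genes. DESeq2 called 13 of 26 mitosis genes lower, where edgeR had called 17 with all libraries, 4 of 22 histone genes beside 8, 9 of 27 kinesins beside 16, 11 of 52 photosystem and antenna genes beside 15, 2 of 15 aquaporins beside 6 and 10 of 38 expansins and xyloglucan enzymes beside 12. It called 0 of 21 secondary wall genes and 0 of 23 replication genes, beside 10 and 3. For stomatal lineage genes it called 1 of 15 beside 5, and for leaf growth regulators 1 of 17 beside 6. Of 24 cuticle and wax genes it called 3 beside 9, of 17 chlorophyll genes 0 beside 3 and of 18 cold-regulated genes 4 beside 5. Gibberellin and brassinosteroid genes gave 1 of 20 beside 4, cytokinin genes 2 of 13 beside 3 and auxin genes 0 of 40 beside 4. Among higher genes it called 5 of 20 salicylic acid genes beside 10, 7 of 16 secreted defence genes beside 8, 10 of 36 cysteine-rich receptor-like kinases beside 10, 6 of 27 WRKY factors beside 10, 5 of 20 detoxification genes beside 6, 2 of 19 ER genes beside 7 and 0 of 19 iron genes beside 7. The counts that held, which use neither wt3 nor a test, differed in these lists by at most 1 when trm5_3 was left out.

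Genes of cell division were lower. Of 26 tested genes for mitotic cyclins, their kinases and cytokinesis, 17 fell (65.4%), 0 rose and 17 held as lower against both wild type libraries. The median log2 fold change was -3.56, against -0.0009 over all tested genes. The size depended on the wild type library, with a median difference of -1.39 from wt1 and -4.31 from wt2, while wt2 exceeded wt1 by a median of 2.79. Without replicate 4, DESeq2 still called 13 of the 26. Summed over the list, the level was 57.8, 375.9 and 249.3 CPM in wild type and 41.6, 27.6 and 35.7 in *trm5-1*.

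The promoters of *CYCA1;1* and *KINESIN-12B* are shown because the motif AACGG, the core of the M-phase element that MYB3R factors are known to bind, occurs in them more than once. The 250 bases before the annotated start are printed, with matches on either strand in capitals. The sequences are from the RefSeq genome TAIR10.1, read 5′ to 3′ on the strand of the gene. They lie at chr1:16777353-16777602 (minus strand) for *CYCA1;1* and chr3:8518886-8519135 (plus strand) for *KINESIN-12B*.
CYCA1;1: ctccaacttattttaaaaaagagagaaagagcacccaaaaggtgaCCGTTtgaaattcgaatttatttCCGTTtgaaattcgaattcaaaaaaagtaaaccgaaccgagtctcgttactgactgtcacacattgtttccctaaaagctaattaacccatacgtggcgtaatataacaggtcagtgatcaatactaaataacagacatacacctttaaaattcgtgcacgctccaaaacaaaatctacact
KINESIN-12B: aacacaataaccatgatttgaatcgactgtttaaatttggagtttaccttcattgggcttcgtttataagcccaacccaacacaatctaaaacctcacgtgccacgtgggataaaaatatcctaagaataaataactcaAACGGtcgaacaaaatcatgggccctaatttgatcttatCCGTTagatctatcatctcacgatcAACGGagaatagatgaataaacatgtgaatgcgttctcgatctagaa
CYCA1;1 holds 2 matches and KINESIN-12B holds 3. Counted from 250 bases before to 50 bases after the start on both strands, here and below, the motif was found in 19 of 26 promoters of the mitotic list (73.1%), 15 of 27 kinesin promoters (55.6%), 12 of 22 histone promoters (54.5%) and 8 of 23 DNA replication promoters (34.8%), and in 26.3% of the 19211 promoters of tested genes. Among all genes that were lower against both wild type libraries it was found in 28.4%. A match in these letters is a description and not a bound site.

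*CYCA1;1* (AT1G44110, chromosome 1, 16774765 to 16777352), an A-type cyclin, had 0.963, 15.7 and 9.65 CPM in wild type and 0.246, 0.191 and 0.185 in *trm5-1*. Even wt1, the lowest wild type library, was above all mutant libraries, and the log2 fold change was -5.39 (SE 1.06, adjusted p = 0.0351). *CDKB1;2*, a plant-specific kinase of the entry into mitosis, had 1.04, 3.65 and 2.36 CPM in wild type against 0.0984, 0.114 and 0.0741 in the mutant. Here the mutant libraries were all close to 0, and the difference was -2.64 from wt1 and -4.38 from wt2. *MAD2*, of the spindle checkpoint, had 2.59, 14.2 and 8.49 CPM in wild type and 0.541, 0.534 and 0.593 in *trm5-1* (log2 fold change -3.92, adjusted p = 0.0282). The cyclins *CYCB2;4* and *CYCA2;3* and the kinase *CDKB2;1* fell with log2 fold changes of -4.42, -3.34 and -3.38, and each held against both wild type libraries. *CYCB1;1*, a cyclin used as a marker of dividing cells, had 0.593, 8.68 and 6.21 CPM in wild type against 0.837, 0.381 and 0.63 in the mutant, so its mutant libraries overlapped wt1 and it was not called (adjusted p = 0.0735). The kinase *AUR2*, with 0.667, 8.15 and 4.45 CPM in wild type against 0.64, 0.191 and 0.704 in the mutant, and the checkpoint activator *CDC20.2*, with 0.741, 10.2 and 6.02 in wild type against 0.344, 0.686 and 0.741 in the mutant, likewise held against wt2 and not against wt1.

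Kinesins are motor proteins of the spindle and of the phragmoplast, the structure that builds the new wall between daughter cells. Of 27 tested kinesin genes, 16 fell, 0 rose and 10 held as lower, with a median log2 fold change of -1.44. *KINESIN-12B* (AT3G23670, chromosome 3, 8519136 to 8525289), a phragmoplast kinesin, had 2.44, 33.2 and 19.2 CPM in wild type and 0.197, 0.534 and 0.593 in *trm5-1*. All mutant libraries were lower than wt1, which itself was far below wt2, and the log2 fold change was -5.33 (SE 1.03, adjusted p = 0.0344). *ATK5*, a spindle kinesin, had 2.59, 23.7 and 14.2 CPM in wild type against 0.738, 0.458 and 0.889 in the mutant and a log2 fold change of -4.28. *KAC2*, a kinesin-like protein of chloroplast movement and not of division, fell less, from 33.9, 50.1 and 41.6 to 18.8, 19.9 and 20.7 CPM (-1.08, adjusted p = 0.027), and was not 2-fold lower than wt1.

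Histone and DNA replication genes were also lower, with fewer calls. Of 22 histone genes, 8 fell and 10 held as lower, and 21 had a log2 fold change below 0. *HIS4*, a histone H4 gene, had 14.5, 27.1 and 22.1 CPM in wild type and 4.08, 1.22 and 2.78 in *trm5-1*. The genotypes were well apart and the log2 fold change was -2.99 (SE 0.48, adjusted p = 0.0266). Histone genes are near-identical copies, so reads may be split among them and single genes are uncertain. Of 23 replication genes, 3 fell and 7 held, and 21 were lower than wt2. *MET1*, the maintenance DNA methyltransferase, fell from 29.6, 56.9 and 43.4 to 13.7, 5.53 and 9.56 CPM, and *CMT3*, a methyltransferase of non-CG sites, from 32.2, 48.6 and 42 to 22, 13.4 and 18.8. The sliding clamp gene *PCNA1* had 8.08, 20.1 and 17.4 CPM in wild type against 6.4, 0.992 and 4.71 in the mutant and the helicase subunit gene *MCM7* 16.9, 46.2 and 33.4 in wild type against 15.5, 2.56 and 10.5 in the mutant. Both held against wt1 and wt2 but neither was called, and trm5_2 was far below trm5_1 in both. The replication list was the one in which the mutant libraries differed most, with a median of -1.59 for trm5_2 minus trm5_1 on the log2 scale.

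D-type cyclins, which link growth signals to the start of the cycle, were mixed. Of 20 genes for D-type cyclins, inhibitors and the endocycle, 3 fell and 1 rose. *CYCD3;2* fell from 21.9, 46.7 and 34 to 11.1, 8.89 and 9.75 CPM and *CYCD1;1* from 8.74, 37.6 and 28.3 to 5.07, 1.68 and 2.7, and both held against wt1 and wt2. *CYCD2;1* rose from 13.5, 13.5 and 14 to 26.7, 25.2 and 26 CPM (log2 fold change 0.93, adjusted p = 0.0199). Its libraries were tight within each genotype, and the difference stayed just under 2-fold against both wild type libraries.

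Regulators of leaf form and of stomata followed the direction of the division genes. All 15 tested stomatal lineage genes had a log2 fold change below 0, 5 fell and 4 held. *TMM*, a receptor-like protein of stomatal spacing, had 1.56, 13.4 and 9.5 CPM in wild type and 0.295, 0.343 and 0.445 in *trm5-1*. Each mutant library was lower than wt1, and the log2 fold change was -4.48 (SE 0.83, adjusted p = 0.0319). The receptor kinase *ERL1*, the peptide *EPF2* and the protease *SDD1* fell with values of -2.7, -3.62 and -3.22. *ERECTA* fell by the test (-2.07) but was only -0.64 from wt1. Of 17 growth regulators of leaves, 6 fell and 2 held. The 2 that held were *YAB1*, a gene of the lower leaf side, with 3.85, 10.3 and 8.19 CPM in wild type against 1.48, 1.79 and 1.56 in the mutant, and *ARGOS*, a gene of organ size, with 0.963, 2.52 and 1.23 in wild type against 0.394, 0.305 and 0.445 in the mutant. The coactivator *GIF1* and the *ANT* gene were lower mainly against wt2, with differences of -0.82 and -0.62 from wt1 and -4.24 and -4.23 from wt2. Flower markers moved the same way at low levels. *AG*, *SEP3* and *PI*, 3 of 6 flower markers tested, all fell and held, with a summed level of 3.63, 8.5 and 6.21 CPM in wild type and 1.33, 1.03 and 1.45 in *trm5-1*. Without replicate 4, DESeq2 called 0 of these 3 markers. Their mutant levels were near the low-count filter, so the markers that passed it may have done so through wild type. The part of flower or young bud tissue in these differences was not tested.

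Among genes of the cell wall, those of cellulose and the secondary wall were lower as well. Of 21 genes of cellulose synthesis and the secondary wall, 10 fell, 0 rose and 8 held, with medians of -1.03 from wt1 and -1.39 from wt2. *XCP2*, a cysteine protease of developing xylem, had 25, 27.2 and 27.7 CPM in wild type and 10.3, 9.99 and 9.67 in *trm5-1*. All libraries of a genotype were nearly equal, and the log2 fold change was -1.41 (SE 0.12, adjusted p = 0.0113). *XCP1*, its relative, fell from 13.6, 12.8 and 15.5 to 4.77, 2.33 and 3.15 CPM. *CESA4*, a cellulose synthase of the secondary wall, fell from 11.4, 23.2 and 16.3 to 5.12, 5.87 and 4.59 CPM, with wt1 and wt2 themselves about 2-fold apart. *CESA8*, another, fell with a log2 fold change of -1.84, *LAC17*, a laccase of lignin formation, with -2.03, and *CTL1*, a chitinase-like protein needed for cellulose, with -1.26. Of the 5 vascular markers, *XCP1* fell, 2 held as lower with *XCP1* among them, and 3 had a log2 fold change below 0. The 2 markers above 0, *SUC2* and *APL*, gave a different picture. *SUC2*, the sucrose transporter of the phloem, had 299, 157 and 215 CPM in wild type and 266, 247 and 257 in *trm5-1* (adjusted p = 0.633), and the phloem regulator *APL* had 21.3, 9.35 and 14.3 in wild type against 20.6, 24.3 and 20.3 in the mutant. Their genotypes overlapped, and summed over the 5 vascular markers the level was 385.4, 245.3 and 308.02 CPM in wild type and 327.4, 290.5 and 306.1 in *trm5-1*.

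Expansins and xyloglucan endotransglucosylases loosen and rebuild the wall of growing cells. Of 38 tested, 12 fell, 3 rose, 12 held as lower (31.6%) and 3 as higher (7.89%). Summed over the list, the level was 3386, 1549 and 2243 CPM in wild type and 3591, 2456 and 3115 in *trm5-1*. These ranges overlapped, and the sum was not lower in the mutant. *XTH32* had 8.0, 35.6 and 23.4 CPM in wild type and 1.72, 1.49 and 1.7 in *trm5-1*. The mutant libraries all lay below wt1, with a log2 fold change of -3.77 (SE 0.56, adjusted p = 0.0245). *EXPA4* went from 13.3, 25.5 and 19.6 to 5.56, 3.62 and 3.74 CPM, *EXPA10* from 14.2, 20.7 and 17.5 to 5.46, 2.59 and 4.0 and *XTH6* from 38.7, 68.8 and 53.8 to 11.4, 4.08 and 7.19. In all of them every mutant library was below every wild type library. *XTH18* and *XTR6* showed another pattern. *XTH18* had 325, 13.9 and 138 CPM in wild type and 263, 145 and 209.9 in *trm5-1*, between wt1 and wt2. *XTR6* had 191, 2.09 and 77 CPM in wild type and 224, 168 and 203 in *trm5-1*, which is close to wt1 and far above wt2. Without replicate 4, DESeq2 called 10 lower and 1 higher of the 38 genes.

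Pectin-modifying enzymes were the largest wall family. Of 231 listed pectin lyase-like proteins and pectin methylesterases, 99 were tested. Of these 99, 30 fell and 11 rose, and 27 held as lower and 14 as higher. Without replicate 4, DESeq2 called 10 lower and 5 higher. AT1G67750, a pectin lyase-like protein, had 7.93, 17.8 and 14.2 CPM in wild type and 0.935, 0.953 and 1.0 in *trm5-1*. Its mutant libraries were nearly equal, and the log2 fold change was -3.78 (SE 0.35, adjusted p = 0.0126). AT1G04680, of the same family, fell from 54.4, 102 and 84 to 13.3, 13.3 and 14.2 CPM. Both directions in this family exceeded the background of 5.83% and 3.59%, at 27.3% and 14.1% of its tested members. GDSL lipases, some of which form cutin, showed 15 lower and 2 higher calls among 48 tested of 101 listed. DESeq2 without replicate 4 called 5 lower and 1 higher of them.

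Water channel genes were lower. Of 15 aquaporins, 6 fell and held, 0 rose and 14 had a log2 fold change below 0. *PIP1;5*, a plasma membrane aquaporin, had 111, 109 and 110.2 CPM in wild type and 49.3, 40.4 and 42.2 in *trm5-1*. Wild type libraries were alike, mutant libraries were alike, and the log2 fold change was -1.32 (SE 0.14, adjusted p = 0.0147). *PIP2;5* went from 6.37, 8.22 and 8.3 to 1.87, 1.83 and 2.22 CPM. *TIP2;1*, a channel of the vacuolar membrane, had 88.8, 448 and 306 CPM in wild type against 32, 16.7 and 27.8 in the mutant, a difference of -1.85 from wt1 and -4.18 from wt2. The summed level of the 15 genes was 2549.5 to 3262 CPM in wild type and 1388 to 1538 in *trm5-1*, so the genotypes did not overlap.

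Cuticle and wax genes were lower in the same leaves. Of 24 tested, 9 fell, 0 rose and 5 held. *HTH*, known for keeping epidermal surfaces from fusing, had 29.6, 87.3 and 67.4 CPM in wild type and 10.3, 12.2 and 10.6 in *trm5-1*. All mutant libraries lay well below wt1, and the log2 fold change was -2.48 (adjusted p = 0.0266). *CER2*, of wax synthesis, fell from 18.7, 26 and 23.1 to 8.46, 9.38 and 10.2 CPM and *GPAT8*, of cutin synthesis, from 31.6, 54.4 and 47.8 to 13.8, 8.16 and 13. Lipid transfer proteins were split, with 8 lower and 6 higher calls among 41. AT2G10940 fell from 44.1, 192 and 163 to 7.23, 2.14 and 6.3 CPM, and AT3G22600 rose from 1.7, 2.2 and 2.39 to 26.4, 90.1 and 49.5.

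Growth hormone genes were lower in small numbers. Of 20 genes of gibberellin and brassinosteroid metabolism and response, 4 fell and 3 held. *GASA4*, a gibberellin-regulated peptide gene, had 25.1, 83.8 and 61 CPM in wild type and 4.58, 4.69 and 4.97 in *trm5-1*. The mutant libraries were nearly equal and lay below wt1, with a log2 fold change of -3.58 (SE 0.45, adjusted p = 0.0199). *GA20OX1*, of gibberellin synthesis, fell at low levels, from 0.667, 1.1 and 0.898 to 0.148, 0 and 0.111 CPM. Of 13 cytokinin genes, 3 fell and 3 held. The type-A response regulators *ARR15* and *ARR16* held and fell, with 8.0, 8.29 and 7.7 CPM in wild type and 2.02, 0.801 and 2.19 in *trm5-1* for *ARR16*. Of 40 auxin genes, 4 fell and 1 held as lower, a share below the background of 5.83%. That gene was *LAX1*, an auxin influx carrier, with 25, 41.7 and 34.7 CPM in wild type against 12.5, 10.5 and 12.2 in the mutant. The auxin receptor *TIR1*, from the F-box list, fell from 34.9, 71.3 and 55.6 to 18.7, 11.3 and 17.9 CPM.

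**Figure D3:**
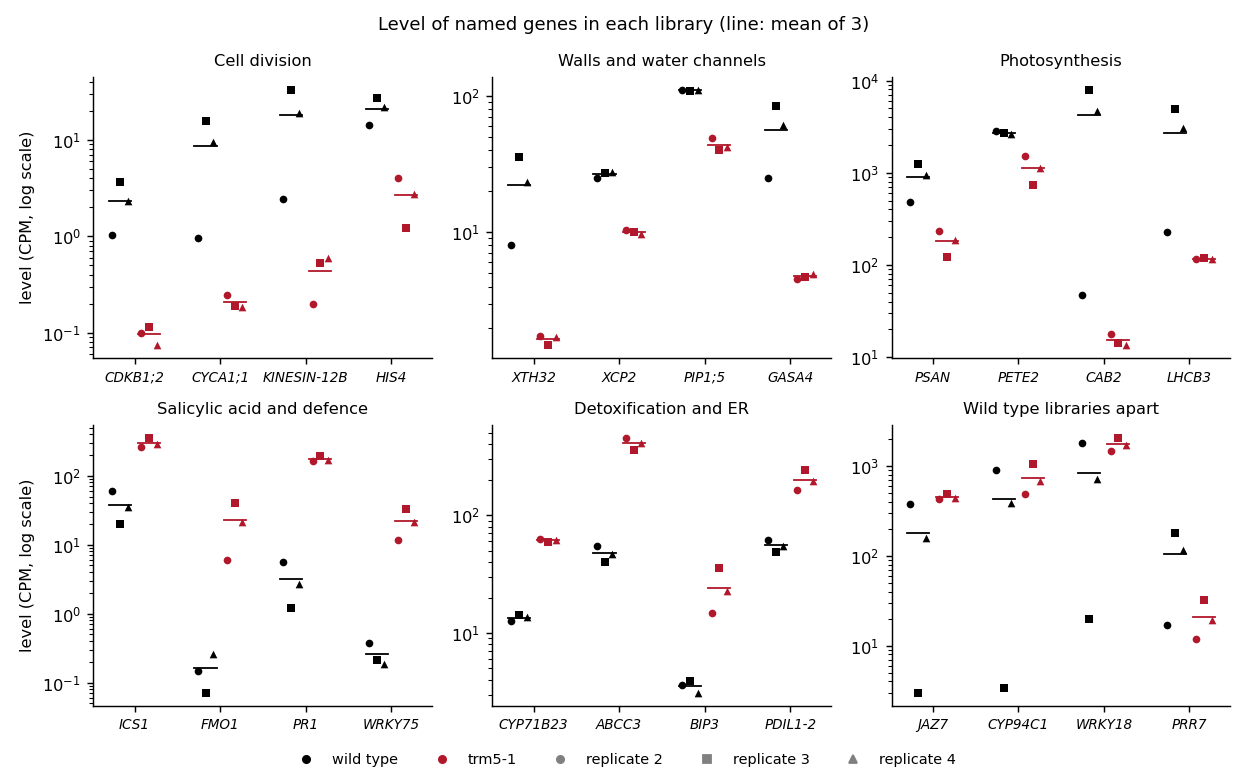
Level of 24 named genes in each library, in CPM on log axes, with wild type in black and *trm5-1* in red, and the replicates as circles (2), squares (3) and triangles (4). Lines mark the mean of 3 libraries. In the first 5 panels every *trm5-1* library lies on one side of every wild type library, although *PETE2* was not called and *LHCB3* did not hold against wt1, and in the last panel wt1 lies near the *trm5-1* libraries and wt2 far from them.

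Nuclear genes of the photosystems and antenna were lower in direction in every member. All 52 tested genes had a log2 fold change below 0, 15 fell, 20 held against both wild type libraries and 42 were lower than wt2. The median difference was -0.97 from wt1 and -1.68 from wt2. Summed over the 52 genes, the level was 49539, 144100 and 105600 CPM in wild type and 32837, 20763 and 27128 in *trm5-1*. The ranges did not overlap, but wt2 and wt1 differed more from each other than wt1 from the mutant.

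Subunits of photosystem I were among the genes that fell. *PSAN* had 484, 1249 and 941 CPM in wild type and 236, 122 and 187 in *trm5-1*. Mutant libraries were all below wt1, and the log2 fold change was -2.3 (SE 0.45, adjusted p = 0.0351). *PSAF* fell from 962, 2272 and 1867 to 471, 251 and 372 CPM and *PSAD-1* from 627, 1267 and 1049 to 365, 212 and 289.6. *PETE2*, which encodes plastocyanin, had nearly equal wild type libraries of 2858, 2664 and 2634 CPM and mutant libraries of 1529.6, 733 and 1128. It held against both, with -1.4 and -1.3, but was not called (adjusted p = 0.0802), and trm5_1 was the highest mutant library.

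Antenna genes differed strongly between the wild type libraries. *CAB2*, a chlorophyll a/b-binding protein gene, had 47, 7911 and 4641 CPM in wild type and 17.7, 14.4 and 13.5 in *trm5-1*. It fell and held by the rule, but its log2 difference was -1.63 from wt1 and -9.02 from wt2. It belongs to a group of near-identical copies that can share reads, so its level is uncertain. *LHCB3* had 227, 4917 and 3018 CPM in wild type against 116, 119 and 115 in the mutant and *LHCB2.2* 39.5, 2136 and 1294 in wild type against 36.5, 22.4 and 30.9 in the mutant. The first was called and the second was not, both were far below wt2, and neither held against wt1.

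Genes of carbon fixation gave few calls, and genes of chlorophyll synthesis were lower mainly against wt2. Of 25 Calvin cycle and photorespiration genes, 1 fell and 2 held, though 23 had a log2 fold change below 0. The gene that fell was *GAPA-2*, a glyceraldehyde phosphate dehydrogenase, with 1007, 1656 and 1383 CPM in wild type and 587, 289 and 438 in *trm5-1*. *RCA*, the Rubisco activase gene, had 5078, 5134 and 5272 CPM in wild type against 3355, 2258 and 2706 in the mutant and did not pass the test (adjusted p = 0.175). Its genotypes did not overlap, but its mean differences of -0.89 and -0.91 stayed under 2-fold. All 17 tested chlorophyll synthesis genes had a log2 fold change below 0, 3 fell (17.6%) and 15 had an unadjusted p under 0.05. DESeq2 called 14 of them with all libraries and 0 without replicate 4. Of these 17 genes, 11 were lower than wt2 and 1 was lower than wt1, with median differences of -1.54 and -0.26. Their summed level was 2999, 10201 and 7312 CPM in wild type and 2662, 1887 and 2306 in the mutant. These ranges did not overlap, but wt1 was near the mutant. The gene that held was *CHLM*, a methyltransferase of the pathway, with 149.9, 264 and 222 CPM in wild type against 103, 51.3 and 74.5 in the mutant. *PORB*, a light-dependent reductase of the same pathway, had 157, 2003 and 1275 CPM in wild type against 158, 114 and 139 in the mutant, at the level of wt1.

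Some cold-regulated genes were lower, with the upstream regulators resting on wt2. Of 18 tested, 5 fell, 0 rose and 3 held. The log2 fold change was below 0 in 14 and above 0 in 4. Against wt2 alone, 10 were lower and 4 higher. Wild type libraries summed to 5832, 4336 and 4903 CPM over the list, and the mutant libraries to 3605, 4721 and 3973. These ranges overlapped. The promoter of *LTI78*, the gene of the list with the lowest p, is shown for the motif CCGAC, the core that CBF factors are known to bind, searched on both strands with matches in capitals (RefSeq TAIR10.1, chr5:21240467-21240716, plus strand).
LTI78: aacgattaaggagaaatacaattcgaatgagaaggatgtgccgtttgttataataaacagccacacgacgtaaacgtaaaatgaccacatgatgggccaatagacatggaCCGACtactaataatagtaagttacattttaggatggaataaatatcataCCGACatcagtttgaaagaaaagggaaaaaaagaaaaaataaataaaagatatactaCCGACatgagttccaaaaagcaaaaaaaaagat
It holds 3 matches in 250 bases. CCGAC was found in 6 of 18 promoters of the list (33.3%) and in 16.5% of the promoters of tested genes. Among all genes that were lower against both wild type libraries it was found in 14.6%.

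*LTI78* (AT5G52310, chromosome 5, 21240717 to 21243644), also known as *RD29A*, had 410.3, 465 and 452 CPM in wild type and 91.2, 91.2 and 88.7 in *trm5-1*. Both sets were tight, and the log2 fold change was -2.29 (SE 0.18, adjusted p = 0.0109). *KIN1*, a gene with a near-identical neighbour, fell from 25.4, 13.1 and 17.6 to 3.99, 4.08 and 4.26 CPM, and *COR413-PM1*, a membrane protein gene, from 148, 396 and 308 to 54.3, 65.9 and 56.5. The dehydrin gene *LTI30* fell but was only -0.90 from wt1. The CBF factors, which induce such genes in the cold, differed strongly between wt1 and wt2. *CBF3* had 1.04, 43.3 and 26.5 CPM in wild type and 0.443, 0.877 and 0.704 in *trm5-1*, *CBF2* 6.59, 139 and 83.5 in wild type against 9.4, 2.63 and 6.52 in the mutant, and *CBF1* 5.04, 93.3 and 57.4 in wild type against 8.27, 2.17 and 5.15 in the mutant. Against wt1 these genes differed by -0.61, -0.27 and -0.15, and against wt2 by -5.88, -4.65 and -4.34.

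Salicylic acid genes were higher. Salicylic acid is the hormone that drives defence against biotrophic pathogens. Of 20 tested genes of its synthesis and signalling, 10 rose (50%), 0 fell, and 11 held as higher and 1 as lower. The last was *ICS2*, an isochorismate synthase gene, with 4.0, 9.14 and 7.7 CPM in wild type against 0.738, 2.63 and 1.85 in the mutant (adjusted p = 0.0583). The median difference was 1.07 from wt1 and 2.2 from wt2, beside 0.012 and -0.0065 over all tested genes. Without replicate 4, DESeq2 called 5 of them. *ICS1* (AT1G74710), the isochorismate synthase that makes most salicylic acid, had 59.3, 20.3 and 35.1 CPM in wild type and 265, 358 and 288 in *trm5-1*. The lowest mutant library was far above the highest wild type library, and the log2 fold change was 2.99 (SE 0.42, adjusted p = 0.0236). *FMO1*, which makes the mobile signal N-hydroxypipecolic acid, had 0.148, 0.0709 and 0.262 CPM in wild type against 5.95, 39.7 and 21.6 in the mutant. It was near 0 in wild type and varied widely among the mutant libraries, with a log2 fold change of 7.08 (SE 0.94). *DLO1* and *DMR6*, hydroxylases that inactivate salicylic acid, rose. *DLO1* went from 3.04, 0.319 and 1.01 to 44.6, 163 and 96.5 CPM and *DMR6* from 51.1, 17.4 and 30.8 to 189, 225 and 204. *SAG101*, a partner of EDS1, rose from 48.6, 27.8 and 39.5 to 104, 105 and 102 CPM.

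Not every gene of the pathway held. *EDS5*, an exporter of the chloroplast needed for salicylic acid synthesis, had 47.1, 5.0 and 19.8 CPM in wild type and 75.8, 56.5 and 68.3 in *trm5-1*. The mutant exceeded every wild type library, but the difference from wt1 was 0.49 and the adjusted p was 0.202. The receptor gene *NPR3* had 409.9, 96.3 and 218 CPM in wild type against 478, 581 and 518 in the mutant and a difference of 0.35 from wt1 and 2.44 from wt2. For both, wt2 was the lowest library.

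Genes for secreted defence proteins and camalexin enzymes were higher too. Of 16 tested, 8 rose and held and 1 fell and held. *PR1*, the standard marker of salicylic acid responses, had 5.56, 1.2 and 2.69 CPM in wild type and 162, 196 and 171 in *trm5-1*. Its mutant libraries were alike, and its log2 fold change was 5.84 (SE 0.60, adjusted p = 0.0144), with 4.96 against wt1 alone. *PR5* rose from 55.5, 25.8 and 39.8 to 261, 1022 and 573 CPM. *PAD3*, the last enzyme of camalexin synthesis, rose from 12.6, 1.06 and 4.79 to 88.2, 61.2 and 74.3, and *CYP71A12* and *CYP71A13*, near-identical neighbours that act earlier, rose by 3.51 and 3.15 on the log2 scale. The gene that fell was *PDF2.2*, a defensin, with 24.8, 217 and 135 CPM in wild type and 7.58, 9.31 and 8.26 in *trm5-1*.

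WRKY factors bind the W box, TTGACC or TTGACT, and regulate much of the defence response. Of a chosen list of 27 WRKY genes, all tested, 10 rose, 0 fell and 12 held as higher, with 25 higher than wt2. The list was chosen with earlier results of these data known, so these shares are not those of the whole family. *WRKY75* (AT5G13080, chromosome 5, 4149738 to 4151201) had 0.37, 0.213 and 0.187 CPM in wild type and 11.7, 33.2 and 21.4 in *trm5-1*. It was barely counted in any wild type library, and the log2 fold change was 6.49 (SE 0.54, adjusted p = 0.0109). *WRKY38* rose from 2.89, 1.1 and 1.27 to 23.2, 65.3 and 43.3 CPM and *WRKY55* from 1.7, 0.248 and 0.598 to 26.5, 41.3 and 30.1. *WRKY54* rose less, from 30.7, 28.5 and 27.9 to 60.6, 107 and 83.8 CPM. *WRKY18*, in contrast, had 1800.2, 19.6 and 722 CPM in wild type and 1492, 2092 and 1744 in *trm5-1*. It matched wt1 and stood 6.48 above wt2, and *WRKY48* gave the same pattern with -0.26 and 4.07.

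The promoters of *WRKY75* and *CYP71B23*, the WRKY factor and the P450 with the lowest p, are shown with W boxes in capitals. The windows are chr5:4151202-4151451 and chr3:9595284-9595533 of RefSeq TAIR10.1, both on the minus strand.
WRKY75: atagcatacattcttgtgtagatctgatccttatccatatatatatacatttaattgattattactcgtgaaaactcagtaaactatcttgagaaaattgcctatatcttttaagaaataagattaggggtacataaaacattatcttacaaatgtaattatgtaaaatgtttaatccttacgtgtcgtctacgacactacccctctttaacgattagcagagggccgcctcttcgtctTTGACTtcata
CYP71B23: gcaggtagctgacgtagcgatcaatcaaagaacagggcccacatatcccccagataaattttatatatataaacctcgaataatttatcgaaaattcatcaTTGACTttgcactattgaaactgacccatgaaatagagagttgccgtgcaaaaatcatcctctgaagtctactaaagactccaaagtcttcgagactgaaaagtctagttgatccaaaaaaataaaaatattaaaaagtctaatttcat
Each holds 1 match. A W box was found in 50.1% of the promoters of genes that were higher against both wild type libraries, in 25.6% of those lower against both and in 32.9% of those of all tested genes. By list, it was found in 24 of 36 promoters of cysteine-rich receptor-like kinases (66.7%), 74 of 126 of NBS-LRR genes (58.7%), 14 of 27 of WRKY genes (51.9%) and 10 of 20 of detoxification genes (50%). It was less common in promoters of the salicylic acid list, at 4 of 20 (20%), and of the secreted defence list, at 4 of 16 (25%). No motif named here contains another.

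Cysteine-rich receptor-like kinases (CRKs) sit in the plasma membrane, and many are known to be induced by salicylic acid. Of 36 tested, 10 rose, 0 fell, 12 held as higher and 28 were higher than wt2. *CRK7* had 7.71, 0.957 and 3.18 CPM in wild type and 59, 94 and 73.2 in *trm5-1*. All mutant libraries were above the highest wild type library, and the log2 fold change was 4.3 (SE 0.74, adjusted p = 0.0292). *CRK37* rose from 1.48, 0.248 and 0.636 to 10.3, 44.2 and 25.3 CPM and *CRK20* from 1.33, 0.638 and 0.823 to 4.48, 6.71 and 6.82. *CRK6* had 31.3, 2.44 and 15.2 CPM in wild type against 127, 241 and 177 in the mutant and held, but was not called (adjusted p = 0.0524). *CRK29* went the other way against wt1, with 124, 11.4 and 50.9 CPM in wild type and 17.9, 21.1 and 16.7 in *trm5-1*. Without replicate 4, DESeq2 called 10 CRKs higher.

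Intracellular receptors of the NBS-LRR family, which recognise pathogen effectors, were called higher more often than lower. Of 126 tested, 13 rose and 1 fell, 11 held as higher and 1 as lower, and 102 had a log2 fold change above 0. Without replicate 4, DESeq2 called 4 of them higher and 0 lower. AT5G66910, a CC-NBS-LRR protein, had 19.6, 20.7 and 20.3 CPM in wild type and 49.2, 50.6 and 48.3 in *trm5-1*. Each genotype was tight, and the log2 fold change was 1.29 (SE 0.11, adjusted p = 0.0113). AT3G25510, a TIR-NBS-LRR protein, rose from 1.93, 2.34 and 2.77 to 9.45, 8.05 and 10.8 CPM. AT4G14370 had 163, 11.2 and 73.6 CPM in wild type against 281, 185 and 239 in the mutant, above every wild type library but less than 2-fold above wt1 (0.51), and AT5G58120 differed by 0.06 from wt1 and overlapped with it. Both held against wt2 and neither was called. Members of this family lie in clusters of similar copies, where reads may be split. Leucine-rich repeat receptor kinases, a family with many roles in growth, showed 15 lower and 7 higher calls among 136, and 11 and 7 that held.

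Genes of the recognition of microbial patterns gave few calls. Of 27 tested, 3 rose and 4 held as higher, while 22 were higher than wt2. The median difference was 0.0055 from wt1 and 1.76 from wt2. The genes that rose were *CRK36*, the receptor-like protein gene *RLP23* and *NHL10*. *RLP23*, a receptor of a peptide shared by several microbes, had 21.5, 2.23 and 10.3 CPM in wild type and 109, 142 and 132 in *trm5-1*, with every mutant library above wt1. *MPK11*, a kinase of early signalling, had 389, 24.8 and 169 CPM in wild type against 551, 328 and 438 in the mutant. Its mutant libraries lay on both sides of wt1 and far above wt2.

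Genes of a chosen detoxification list were higher, while the wider families were mixed. Of 20 multidrug transporters, UDP-glycosyltransferases and related stress genes, 6 rose, 0 fell and 9 held as higher. The P450 genes *CYP71B23* and *PAD3* are among these 6 and are counted again in the CYP71B list below. Of 99 UDP-glycosyltransferases, 8 rose, 6 fell, 8 held as higher and 5 as lower. Of 60 ABC and MATE transporters, 6 rose, 4 fell, 8 held as higher and 0 as lower. *ABCG40*, an ABC transporter that can import abscisic acid, had 7.93, 4.36 and 5.05 CPM in wild type and 34.3, 99.7 and 63.1 in *trm5-1*. The genotypes did not overlap, and the log2 fold change was 3.52 (SE 0.46, adjusted p = 0.0211). *ABCB4*, an auxin transporter, rose from 33.2, 19.2 and 25.8 to 84.7, 61.6 and 75.7 CPM. AT2G04050, a MATE efflux protein of the wider family and not of the 20 genes, rose from 0.445, 0.283 and 0.524 to 23.9, 6.71 and 15.1. *UGT73B5* had 36.2, 8.5 and 20.3 CPM in wild type against 125, 56.9 and 87.5 in the mutant and held without a call (adjusted p = 0.063). *ABCC4* had 127, 5.35 and 54.7 CPM in wild type against 142, 115 and 134 in the mutant, so that it matched wt1 and exceeded wt2. Of 23 CYP71B genes, 4 rose and 3 held. *CYP71B23*, *CYP71B3* and *CYP71B24* are neighbours on chromosome 3 and all rose, while the adjacent *CYP71B22* had 4.22, 17.5 and 11.4 CPM in wild type against 4.58, 2.4 and 4.56 in the mutant and was lower only against wt2. Glutathione transferases were split, with 4 lower and 4 higher calls among 34. *GSTF7* rose from 80.5, 53.6 and 64.1 to 321, 138 and 250.1 CPM and *GSTU26* fell from 2.07, 3.22 and 3.14 to 0.492, 0.458 and 0.667.

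**Figure D4:**
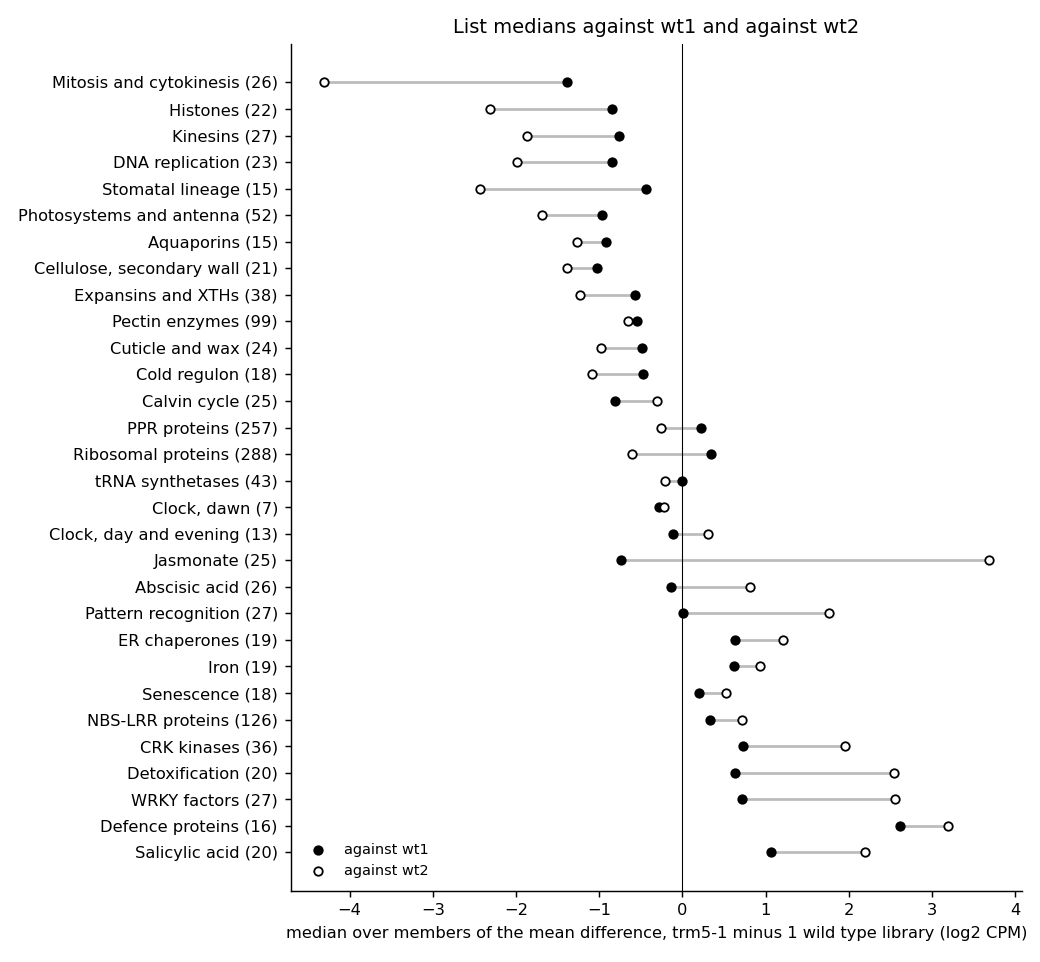
Median over the tested members of each list (vertical axis, members in brackets) of the mean difference of *trm5-1* from wt1 (filled points) and from wt2 (open points), in log2 CPM. Cell division lists lie left of 0 and the salicylic acid, defence protein and WRKY lists right of 0 in both comparisons, whereas jasmonate genes run from -0.73 against wt1 to 3.69 against wt2.

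Genes for chaperones of the endoplasmic reticulum (ER) and its stress response were higher in part. Chaperones fold secreted proteins and are induced by the unfolded protein response. All 19 tested genes had a log2 fold change above 0, 7 rose (36.8%) and 3 held, with most differences from wt1 under 2-fold. The summed level was 3658, 2509 and 2947 CPM in wild type and 5920, 6332 and 5916 in *trm5-1*. The promoters of *BIP3* and *PDIL1-2*, which both held, are shown for the G-box CACGTG, a palindrome bound by many bZIP and bHLH factors, in capitals (RefSeq TAIR10.1, chr1:2931851-2932100, minus strand, and chr1:29126398-29126647, plus strand).
BIP3: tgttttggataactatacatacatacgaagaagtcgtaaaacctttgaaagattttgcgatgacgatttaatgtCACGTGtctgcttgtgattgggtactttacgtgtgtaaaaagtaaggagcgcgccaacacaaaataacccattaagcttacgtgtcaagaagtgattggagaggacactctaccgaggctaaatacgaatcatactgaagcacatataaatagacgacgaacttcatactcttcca
PDIL1-2: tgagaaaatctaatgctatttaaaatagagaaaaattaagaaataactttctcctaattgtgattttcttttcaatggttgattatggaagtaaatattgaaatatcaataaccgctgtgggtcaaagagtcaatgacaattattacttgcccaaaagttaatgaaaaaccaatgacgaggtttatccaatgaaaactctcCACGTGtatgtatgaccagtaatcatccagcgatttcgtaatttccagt
CACGTG was found in 11 of 19 promoters of the ER list (57.9%), in 10 of 19 of the iron list (52.6%) and in 8.8% of the promoters of all tested genes. It was also found in 17 of 52 promoters of the photosystem and antenna list (32.7%), which was lower. Of the dawn clock list, where no gene was called, 6 of 7 promoters held it (85.7%). Among all genes higher against both wild type libraries it was found in 7.6%.

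*BIP3* (AT1G09080, chromosome 1, 2929217 to 2931850), the stress-induced form of the BiP chaperone, had 3.63, 3.93 and 3.1 CPM in wild type and 14.7, 35.4 and 22.8 in *trm5-1*. Wild type libraries were alike, the mutant libraries were all higher, and the log2 fold change was 2.77 (SE 0.35, adjusted p = 0.0199). *PDIL1-2* (AT1G77510, chromosome 1, 29126648 to 29129700), a protein disulfide isomerase gene, rose from 62.2, 49.1 and 55.2 to 163, 241 and 194 CPM. *SHD*, the ER form of HSP90, rose from 609, 541 and 569 to 1127, 1623 and 1305 CPM and also held. *BIP1* and *CNX1*, the calnexin gene, rose by 0.96 and 1.01 on the log2 scale, less than 2-fold above wt1. *IRE1A*, the sensor kinase of the response, had 131, 31.3 and 72.1 CPM in wild type against 118, 124 and 122 in the mutant, just below wt1 and above wt2. Cytosolic heat shock genes gave no such block, with 0 of 22 called by edgeR, 3 higher and 0 lower at an unadjusted p under 0.05, 2 called higher by DESeq2 and 1 that held.

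Some iron and senescence genes rose. Of 19 iron homeostasis genes, 7 rose (36.8%), 0 fell and 4 held. *YSL3*, a transporter of metal-nicotianamine complexes, had 49.6, 29.3 and 38.2 CPM in wild type and 106, 119 and 111 in *trm5-1*. The genotypes were apart, and the log2 fold change was 1.52 (SE 0.22, adjusted p = 0.0239). *FRO3*, a ferric reductase of mitochondria, rose from 22.7, 13.4 and 18.6 to 37.2, 92 and 61.1 CPM, and *OPT3*, a phloem iron transporter, from 118, 84.4 and 99.6 to 174, 255 and 214. *FER4*, a ferritin gene, had 17.6, 40.3 and 33.8 CPM in wild type against 22.7, 9.04 and 10.7 in the mutant and overlapped. Of 18 senescence genes, 4 rose and held. *SAG13* rose from 2.0, 0.319 and 1.16 to 16.9, 70.2 and 37.8 CPM, *GLN1;1*, a cytosolic glutamine synthetase gene, from 159, 172 and 164 to 365, 624 and 469.8, and *JUB1*, a NAC factor that delays senescence, from 0.593, 0.177 and 0.299 to 2.71, 4.96 and 4.15. *NAP*, a NAC factor that promotes senescence, had 0.593, 17 and 9.8 CPM in wild type against 0.443, 1.83 and 1.07 in the mutant, with wt1 inside the range of the mutant.

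For jasmonate genes the answer depended on the wild type library. Jasmonate is induced by wounding and is known to oppose salicylic acid in defence. Of 25 tested genes, edgeR and DESeq2 called 0, edgeR gave 0 at an unadjusted p under 0.05 and 0 held, while 8 were lower than wt1 and 23 were higher than wt2, and 7 of these did both. The median difference was -0.73 from wt1 and 3.69 from wt2. The summed level was 32672, 2452 and 14584 CPM in wild type and 20675, 19898 and 20210 in *trm5-1*. Each mutant library thus lay between wt1 and wt2. *JAZ7*, a repressor of the pathway, had 377, 2.98 and 159 CPM in wild type and 434, 498 and 448 in *trm5-1*. *CYP94C1*, which inactivates the hormone, had 912, 3.4 and 388 in wild type against 493, 1050.1 and 679.9 in the mutant, and *VSP2*, a storage protein gene, 689, 4.71 and 291 in wild type against 60.7, 199 and 121 in the mutant. *JAZ7* differed by 0.28 from wt1 and 7.23 from wt2 on the log2 scale and *CYP94C1* by -0.37 and 7.66, whereas every mutant library of *VSP2* lay between wt1 and wt2.

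Abscisic acid genes also differed between the wild type libraries, but a few were called. Of 26 tested, 3 rose (11.5%), 0 fell, and 2 held as higher (7.69%) and 1 as lower. The log2 fold change was above 0 in 17, and the medians were -0.13 from wt1 and 0.81 from wt2. *CYP707A3*, which breaks the hormone down, was 1 of the 3 that rose, with 130.3, 70.7 and 97.3 CPM in wild type and 353, 383 and 374 in *trm5-1* (log2 fold change 1.9, adjusted p = 0.0236). *RD26*, a NAC factor of the response, had 311, 8.54 and 129 CPM in wild type against 165, 71 and 117 in the mutant and lay between wt1 and wt2. Of 22 ethylene genes, 1 fell and 1 rose. The latter was *ERF2*, an ethylene response factor, with 132, 62.6 and 88 CPM in wild type against 267, 418 and 316 in the mutant, and it held against both wild type libraries.

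No clock gene was called by edgeR or held against both wild type libraries. These were 7 dawn and 13 day and evening genes, of which DESeq2 called 3 evening genes lower and 0 higher. At an unadjusted p under 0.05 edgeR gave 1 dawn gene lower and 4 evening genes lower and 1 higher. *PRR7* had 17.1, 179 and 116 CPM in wild type and 11.9, 32.1 and 19.3 in *trm5-1*, which places the mutant around wt1 and below wt2. *PRR5*, its relative, had 21.6, 117 and 77.5 CPM in wild type against 16.9, 12.3 and 15.1 in the mutant, and *FKF1*, a blue light receptor of the evening, 16.4, 90.6 and 58.3 against 9.65, 15.4 and 12.7. In both every mutant library was below every wild type library, but the differences from wt1 were -0.56 and -0.41, under 2-fold, and the adjusted p-values were 0.0537 and 0.065. *TOC1*, an evening repressor, had 281, 108 and 179.7 CPM in wild type against 229.8, 259.8 and 248 in the mutant, and *LUX*, a part of the evening complex, 112, 44.1 and 70.7 against 98.9, 126 and 107. For both, wt2 was the lowest library, while wt1 was above the mutant for *TOC1* and inside its range for *LUX*. *LNK1*, a coactivator of the morning, had 10.8, 72.4 and 49.8 CPM in wild type against 6.3, 21.4 and 13.1 in the mutant, on both sides of wt1 and below wt2. *GI* had 39.9, 269.8 and 181 CPM in wild type against 37, 89.9 and 58.1 in the mutant, a difference of 0.54 from wt1 and -2.22 from wt2. *CCA1* and *LHY*, the dawn factors, were both low. *CCA1* had 2.59, 5.67 and 4.82 CPM in wild type against 1.38, 2.78 and 2.48 in the mutant, and *LHY* 4.52, 1.35 and 1.68 against 1.03, 1.3 and 1.11. Every mutant library of *LHY* was below every wild type library, among which wt1 was the high one, while for *CCA1* wt1 was the low one and overlapped with the mutant. *ZTL* and *ELF3* differed by less than 2-fold over the 6 libraries, with 47.1, 44.3 and 43 CPM in wild type against 38.1, 34.6 and 36.5 in the mutant for *ZTL*, where the genotypes did not overlap, and 65.1, 52 and 55.6 against 59, 68.1 and 65.8 for *ELF3*, where they did. *FT*, the mobile flowering signal, had 24.2, 0 and 9.01 CPM in wild type and 13, 6.1 and 9.37 in *trm5-1*. It had 0 counts in wt2 and was highest in wt1, with the mutant libraries between. *CO*, its activator, had 1.41, 0.319 and 0.636 CPM in wild type against 2.12, 8.47 and 5.82 in the mutant and held as higher without a call (adjusted p = 0.052).

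Genes for ribosomal proteins and aminoacyl-tRNA synthetases were called and held at shares below the background in both directions. Of 288 ribosomal protein genes, 20 fell (6.94%) and 3 rose (1.04%), and 11 held as lower (3.82%) and 1 as higher (0.35%). The lowest p-values were those of plastid ribosomal proteins. *PRPL11* had 147, 190.2 and 170.0 CPM in wild type and 81.6, 55.9 and 66.5 in *trm5-1*, *PRPS20* 166, 232 and 203 in wild type against 93.2, 69.3 and 86.7 in the mutant, and *emb1473* 287, 494 and 393 in wild type against 148, 106 and 128 in the mutant. All held against both wild type libraries. The median of the whole list was 0.34 from wt1 and -0.61 from wt2, so the direction differed between the wild type libraries. Of 43 aminoacyl-tRNA synthetase genes, 1 rose and 1 held as lower. Pentatricopeptide repeat proteins (257), F-box proteins (185) and MYB, bHLH and NAC factors (185) held as lower in 1, 5 and 10 cases (0.39%, 2.7% and 5.41%). They held as higher in 0, 7 and 13 cases (0%, 3.78% and 7.03%). Of 42 proteasome genes, 4 rose by less than 2-fold. *RPT5B*, a regulatory subunit, went from 19, 18.4 and 19 to 37.3, 37.8 and 36.1 CPM.

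The other tRNA methyltransferases and the adenosine deaminases of tRNA were not called. They lie outside the naming rule and were chosen after their values were seen. *TRM5B* had 15, 28.7 and 19.4 CPM in wild type and 16.4, 19.5 and 17.6 in *trm5-1*, *TRM5C* 9.85, 14.2 and 11.1 in wild type against 9.94, 9.84 and 10.2 in the mutant, and *TRM10* 15.4, 19.2 and 16.8 in wild type against 20.3, 17.2 and 20.2 in the mutant. *TAD1*, which forms the inosine that follows the anticodon of tRNA-Ala, had 2.74, 4.5 and 4.08 CPM in wild type against 2.95, 2.21 and 3.04 in the mutant. Of the 6 genes beside *TRM5* none held, and the smallest adjusted p was 0.286, that of *TAD1*. A p above the threshold does not show equal levels.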

How the data were processed

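Leaf mRNA of wild type and *trm5-1* was sequenced with an Illumina TruSeq kit that does not mark strand, so a gene and an overlapping antisense gene cannot be told apart. Per the methods, the authors trimmed reads with Trim Galore 0.4.2, aligned them to TAIR10 with STAR 2.5.3 and counted reads per gene. The authors deposited the counts without normalization, and these raw counts are the values used here. A second deposited table of normalized values was not used, and 0 columns of the table belong to samples outside the labels.

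Counts were fitted in edgeR 4.0.16 (R 4.3.3) with filterByExpr, TMM scaling, the quasi-likelihood test and Benjamini-Hochberg adjustment over 19408 genes at a threshold of 0.05. Levels are CPM on TMM-scaled totals. Differences from a single wild type library are in log2 CPM with a prior count of 2. The SE printed is the absolute log2 fold change over the root of edgeR's F value. DESeq2 1.42.0, which the study used, other scalings and filters, a replicate block and left-out libraries were alternatives. Library totals of 14954658 to 26927531 set the counting precision, and the common biological coefficient of variation was 34.4%. On simulated counts for 19408 genes, edgeR with 3 libraries per group recovered 197 of 200 changed genes with 10 false calls. The simulated libraries were independent. The log2 fold change of the genes set higher had a median of 3.12, and recovery of smaller changes was not tested. With 2 libraries per group edgeR recovered 193 of 200 with 4 false calls, whereas the real libraries without replicate 4 gave 0 calls. Recovery at the spread of the real libraries was not tested.

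Named genes are *TRM5*, the 15 genes with the smallest p in each direction that were called and held against both wild type libraries, and from each of 67 lists up to 6 called members, up to 4 that held without a call and up to 3 that held against 1 wild type library only, and clock genes and markers could be named in full, of which only some are. Lists and members were chosen with earlier results of these data known. Of the lists' entries, 19 whose symbol did not match the annotation were dropped. Gene names, coordinates and sequences are from RefSeq TAIR10.1.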

Additional observations from a re-analysis of the deposited data

How the results depend on the processing

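The number of genes called depended on the tool and on replicate 4. The edgeR count of 1387 lower and 835 higher genes became 3229 and 2004 with DESeq2, and 3785 and 3969 against wt2 alone. It became 7 and 5 against wt1 alone. Leaving out 1 library at a time gave 0 to 4334 lower and 0 to 3263 higher genes. The count was 0 in both directions without wt3 (2438 lower and 1496 higher at an unadjusted p under 0.05) and without trm5_3 (2574 and 1656). It was 63 lower and 149 higher without trm5_1, 9 and 21 without trm5_2, 525 and 417 without wt2, and highest without wt1. With replicate 4 left out of both genotypes, edgeR called 0 lower and 0 higher, and DESeq2 336 and 227, of which 518 were called with all libraries as well. Where 1 library stands for a genotype, it is assumed to vary like the other genotype. The cause of these shifts was not tested.

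With the replicate number as a block, edgeR called 0 lower and 0 higher genes (2968 and 2283 at an unadjusted p under 0.05), and also 0 and 0 without replicate 4 (643 and 548). Same-numbered libraries did not deviate together (correlations of deviations of -0.04, -0.02 and 0.06), so the numbers are not taken as pairs. RLE and upper quartile scaling and both other filters kept the counts within 1.5 times.

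The count of 1132 lower and 697 higher genes against both wild type libraries became 3992 and 3966 with no minimum difference and 203 and 268 with a minimum of 2 on the log2 scale. It was 1189 and 716 with a prior count of 0.5, 1192 and 702 without trm5_3, and 1126 and 689 where wt3 also had to lie outside the *trm5-1* range, a setting chosen after seeing the data. Of the 228 genes listed for the text, 157 were called. All of these that an alternative tested kept their direction. DESeq2 called all 157 again, and 96 without replicate 4.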
